A study of Mus musculus with 4 samples.

Results

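The expression of 10 regulators of alternative splicing in neurons was followed in cultured mouse cortical neurons exposed to a p53 activator. The 10 genes were Khdrbs1, Khdrbs2, Khdrbs3, Nova1, Nova2, Rbfox1, Rbfox2, Rbfox3, Ptbp2 and Celf4, taken by symbol from the 18854 genes of the deposited table, and all 10 had a row and passed the filter on low values. The set was chosen by family and selected on the measured fall of Khdrbs2 between DMSO and p53 activator, so the values of the 10 under this contrast are a description and carry no p-value. The cells were wild-type cortical neurons at 15 days in culture, given the Mdm2 inhibitor Nutlin-3 for 2 days (p53 activator, 2 libraries) or the solvent DMSO (2 libraries, whose treatment label says that nothing was given while their titles name DMSO). No source used here gives the strain, the age of the donor animals or any pooling, nor says whether libraries that share a treatment were cultured apart, so the spread and any p-value refer to these libraries and may be technical.

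Splicing regulators of this kind are RNA-binding proteins that sit near an exon in the unspliced transcript and favour or block its inclusion. Neurons carry their own set. KHDRBS proteins (Sam68, SLM1 and SLM2) bind A- and U-rich RNA and set the exon choice of the neurexins, which are presynaptic adhesion molecules. NOVA proteins bind clusters of YCAY and act on synaptic transcripts, RBFOX proteins bind UGCAUG, PTBP2 holds back exons of the mature neuron during development, and CELF4 binds many mRNAs in excitatory neurons. The table gives whole genes and no exons, so what is described is the amount of RNA of these regulators and not their splicing activity.

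The DMSO libraries summed to 14584247 and 14968028 reads, the activator libraries to 19065197 and 17716272 reads, and values are CPM, the reads of a gene scaled to the library total. The 10 genes rested on between 463 and 7002 reads per library. Mitochondrial RNAs took 14.3% to 15.6% of the reads under DMSO and 8.97% to 9.99% under p53 activation, and nuclear protein-coding genes 73.4% to 75.8% and 82.6% to 83.1%. Each CPM value stands beside this shift in composition. A gene is called here when its adjusted p in limma, fitted on log2(CPM + 1) over all 16654 genes tested, was under 0.05. Of the markers of other cells tested, limma called 0 of 7 for astrocytes, 0 of 6 for the oligodendrocyte lineage and 0 of 2 for microglia. It called 1 of 3 for endothelial cells and pericytes (Kdr), 0 of 5 for neural progenitors and 0 of 3 for fibroblasts. Of all genes tested 33.2% were called in either direction. Kdr read 0.343 and 0.601 CPM under DMSO against 1.10 and 1.24 CPM under p53 activation. It passed the filter on low values through the activator libraries alone, so nothing is read from that call. Astrocyte markers summed to 1035 to 1073 CPM under DMSO against 1132 to 1163 CPM under p53 activation. Those of the oligodendrocyte lineage summed to 165 to 171 against 187 to 190 CPM. Both were higher in each activator library on the CPM scale, and sums on the protein-coding total were not taken. Slc1a3 held much of the astrocyte sum (means of 562 and 641 CPM). Slc1a3, Aqp4 and Gja1 lay higher in each activator library, while the groups of Gfap, Aldh1l1, S100b and Aldoc overlapped. The sums were 126 to 136 against 115 to 120 CPM for neural progenitors, 26.2 to 29.3 against 28.2 to 31.3 CPM for fibroblasts, 4.94 to 7.13 against 5.87 to 7.06 CPM for endothelial cells and pericytes and 4.34 to 4.53 against 2.88 to 3.67 CPM for microglia. The log2 fold changes of the most abundant gene of these lists were Slc1a3 0.19, Olig1 0.17, Nes -0.09, Pdgfra 0.28, Pdgfrb -0.28 and P2ry12 -0.50. Pdgfra is on the fibroblast list and on that of the oligodendrocyte lineage, and counts in both sums. Other genes of the astrocyte, fibroblast, endothelial and pericyte, and microglia lists had the opposite sign, so none of their most abundant genes stands for its list. The genes tested of the oligodendrocyte lineage were all positive and those of neural progenitors all negative on the CPM scale, without a call. The part of other cells in the results was not tested.

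Of the 10 regulators 0 were called higher and 2, Khdrbs2 and Rbfox3, were called lower. Over all genes tested 16.9% were called higher and 16.3% lower, 33.2% in either direction, and nothing is read from the count of the members because this contrast was in view when they were chosen. The count of 0 higher held at an unadjusted p under 0.05 in limma and in the calls of edgeR (10.6% of all genes higher, 16.1% lower) and DESeq2 (6.8% and 7.93%) on the reads recovered from CPM. The shares of all genes called higher and lower were 9.8% and 11.6% after quantile normalization and 1.81% and 11.8% without the mean-variance trend of limma. For protein-coding genes on their own total they were 4.34% and 13.0%, and after cyclic loess 5.01% and 9.79%. Without DMSO replicate 1 they were 6.83% and 8.68%, without p53 activator replicate 1 9.98% and 14.8%, and without p53 activator replicate 2 11.6% and 10.7%. The median log2 fold change of the 10 genes was 0.06, beside 0.03 for all genes tested and 0.09 for nuclear protein-coding genes.

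**Figure D1:**
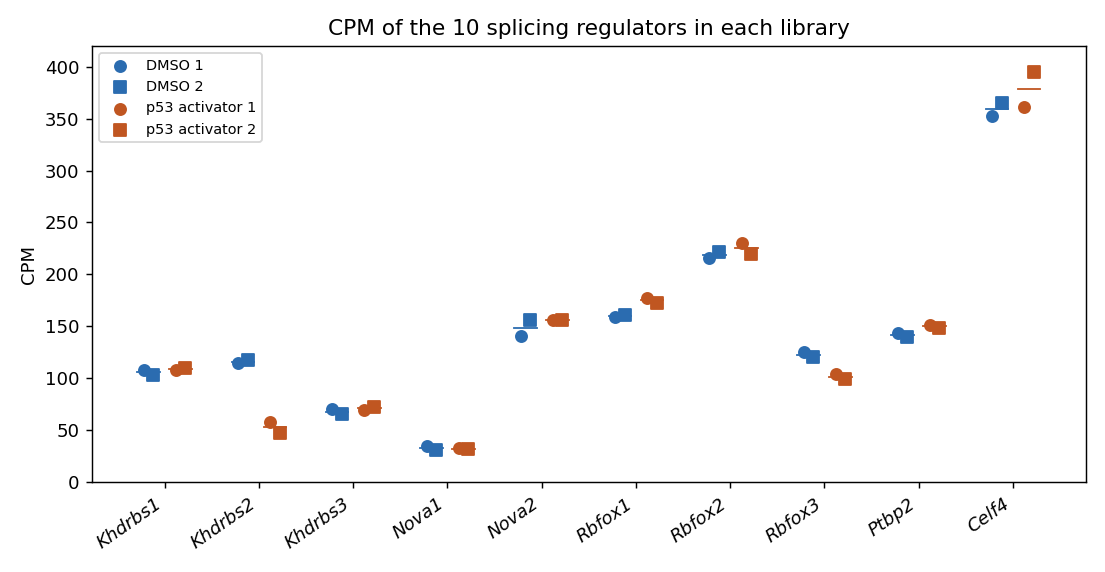
CPM (vertical axis) of each splicing regulator (horizontal axis) in the 2 DMSO libraries (blue) and the 2 p53 activator libraries (orange), with a short line at each group mean (n = 2). Khdrbs2 stands at 115 and 117 CPM under DMSO against 57.9 and 47.4 CPM under p53 activation, and Rbfox3 is the other gene whose activator libraries lie visibly below.

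Promoter sequence was looked at because p53 is a transcription factor. RefSeq promoters on GRCm38.p6, from 250 bases before to 50 bases after a gene's start, were held for 6 of the 10 genes (Khdrbs2, Ptbp2, Nova1, Nova2, Rbfox1 and Rbfox3), as 7 sequences since Rbfox1 has a pair of starts. The p53 half-site, the 10-base element that p53 binds in pairs, was searched on both strands and found in 1 of the 7, that of Ptbp2, and in 8.36% of all 32851 promoters. CCAAT, searched on both strands (also read as ATTGG), was found in 2 of the 7, those of Khdrbs2 and Rbfox3, and in 37.4% of all promoters. TATAAA on either strand was in 0 of the 7 and in 13.6% of all. The Khdrbs2 and Rbfox3 promoters are printed as those of the 2 genes called lower, with CCAAT matches in capitals, and the Ptbp2 promoter as the one with a p53 half-site, which is in capitals there. A match is a run of letters and not a shown binding site.
Khdrbs2, chr1:32172472-32172771, plus strand: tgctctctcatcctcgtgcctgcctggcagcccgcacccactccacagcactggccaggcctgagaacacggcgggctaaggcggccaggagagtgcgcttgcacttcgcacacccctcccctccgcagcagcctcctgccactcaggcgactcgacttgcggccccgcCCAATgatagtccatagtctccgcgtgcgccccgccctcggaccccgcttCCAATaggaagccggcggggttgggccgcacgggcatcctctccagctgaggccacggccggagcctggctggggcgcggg
Rbfox3, chr11:118760992-118761291, minus strand: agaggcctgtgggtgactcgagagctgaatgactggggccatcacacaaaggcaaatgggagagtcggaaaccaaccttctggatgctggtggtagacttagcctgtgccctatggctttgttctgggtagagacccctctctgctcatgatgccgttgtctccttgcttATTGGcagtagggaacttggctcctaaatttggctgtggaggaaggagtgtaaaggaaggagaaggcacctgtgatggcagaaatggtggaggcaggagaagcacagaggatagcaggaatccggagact
Ptbp2, chr3:119783339-119783638, minus strand: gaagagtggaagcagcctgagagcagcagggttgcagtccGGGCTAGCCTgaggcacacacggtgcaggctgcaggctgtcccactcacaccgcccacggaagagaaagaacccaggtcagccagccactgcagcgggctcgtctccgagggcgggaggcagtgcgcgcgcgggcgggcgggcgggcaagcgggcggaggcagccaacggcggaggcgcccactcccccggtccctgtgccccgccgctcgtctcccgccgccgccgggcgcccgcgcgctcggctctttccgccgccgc

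The promoters of the 2 genes called lower were unlike in base composition. That of Khdrbs2 is 70.3% G and C with 26 CpG dinucleotides, and that of Rbfox3 is 53% G and C with 4, beside medians of 52.7% and 7 over all promoters. Ptbp2 (74.7%, 36 CpG) and Nova2 (71.3%, 17 CpG), which were not called, lie on the side of Khdrbs2. The pair of Rbfox1 promoters has 3 CpG, below the median, and 7 CpG, equal to it. That of Nova1 has 14 CpG at 51.7% G and C, and neither Rbfox1 nor Nova1 was called. A part of base composition in the calls was not tested.

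Khdrbs2 encodes SLM1, a KHDRBS protein whose RNA is found in particular classes of neurons. It read 115 and 117 CPM under DMSO against 57.9 and 47.4 CPM under p53 activation, resting on 1673, 1753, 1104 and 839 reads. Both activator libraries were far below both DMSO libraries, and the gap between the groups was much wider than the spread within either. The group means were 115.9 ± 1.70 and 52.6 ± 7.46 CPM (SD, n = 2 each), a fall to 0.454 of the DMSO level and a log2 fold change of -1.13 ± 0.08 (SE). In these bulk libraries fewer cells with the RNA and less RNA per cell cannot be told apart. Among nuclear protein-coding genes with a mean of at least 10 CPM, only Kcnip4 (log2 fold change -1.21) fell further than Khdrbs2 out of 8748. Khdrbs2 held rank 6 from the lowest among all 12762 nuclear protein-coding genes tested and rank 92 among all 16654 genes tested.

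The other KHDRBS genes showed no fall of that size. Khdrbs1, which encodes the widely expressed Sam68, read 108.2 and 103.2 CPM under DMSO against 108.3 and 109.8 CPM under p53 activation (log2 fold change 0.05 ± 0.08 SE). Khdrbs3, which encodes SLM2, read 70.3 and 65.4 CPM under DMSO against 69.4 and 72.6 CPM under p53 activation (0.07 ± 0.08). The activator libraries lay above the DMSO libraries for Khdrbs1, narrowly in replicate 1, and the groups overlapped for Khdrbs3. The 95% interval of the log2 fold change ran from -0.11 to 0.20 for Khdrbs1 and from -0.10 to 0.23 for Khdrbs3.

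A ratio taken within a library does not depend on how libraries are scaled. The ratio of Khdrbs2 to Khdrbs1 reads was 1.06 and 1.14 under DMSO and 0.535 and 0.431 under p53 activation, and that of Khdrbs2 to Khdrbs3 was 1.63 and 1.79 under DMSO and 0.834 and 0.652 under p53 activation. The ratio of Khdrbs3 to Khdrbs1 was 0.650 and 0.634 under DMSO and 0.641 and 0.661 under p53 activation. Khdrbs2 thus lost ground to both of its relatives, which kept nearly the same proportion to each other. Per kilobase of annotated exon, Khdrbs2 made up 23.6% and 25.1% of the summed KHDRBS level under DMSO and 13.6% and 11.1% under p53 activation. Khdrbs3 was the most abundant of the KHDRBS genes on that scale, at 40.7% and 39.4% under DMSO and 45.7% and 47.7% under p53 activation.

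By the measure of distance between centred log2(CPM + 1) values over the 4 libraries, the 5 genes nearest to Khdrbs2 were LOC118567825, LOC115489710, Kcnip4, Kcnq1ot1 and Macrod2os1, at distances of 0.08 to 0.16. Kcnip4 encodes a partner of voltage-gated potassium channels and stood at 1678 ± 73.6 CPM under DMSO against 727 ± 87.6 CPM under p53 activation (SD, n = 2 each). Kcnq1ot1, a long noncoding RNA of an imprinted domain, stood at 793 ± 52.5 and 387 ± 41.0 CPM. With 4 libraries in 2 groups, such likeness describes little more than the size of the fall.

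Rbfox3 encodes NeuN, the nuclear protein used to stain neurons. It read 124.8 and 120.7 CPM under DMSO against 104 and 99.3 CPM under p53 activation. The groups did not overlap, and the gap was smaller than that of Khdrbs2. The group means were 122.8 ± 2.88 and 101.7 ± 3.26 CPM (SD, n = 2 each), a signed difference of -17.2% of the DMSO mean, and the log2 fold change was -0.27 ± 0.08 (SE). Leaving out DMSO replicate 1 or p53 activator replicate 2, Rbfox3 was no longer called (log2 fold changes -0.25 and -0.24), and neither was it when limma was fitted without its mean-variance trend.

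The means of the related genes Rbfox1 and Rbfox2 were slightly higher under p53 activation on the CPM scale. Rbfox1, whose product acts on exons of ion channels and synaptic proteins, read 159.0 and 161.3 CPM under DMSO against 177.5 and 172.6 CPM under p53 activation (log2 fold change 0.13 ± 0.08 SE). Rbfox2, which is also expressed outside neurons, read 215.6 and 221.5 CPM under DMSO against 229.9 and 220.02 CPM under p53 activation (0.04 ± 0.08). The Rbfox1 groups did not overlap, those of Rbfox2 did, and neither gene was called. Within a library the ratio of Rbfox3 to Rbfox1 was 0.785 and 0.749 under DMSO and 0.586 and 0.576 under p53 activation, and that of Rbfox3 to Rbfox2 was 0.579 and 0.545 under DMSO and 0.452 and 0.452 under p53 activation. Per kilobase of exon Rbfox3 held 25.5% and 24.5% of the RBFOX level under DMSO and 20.7% and 20.5% under p53 activation, while the summed level of the RBFOX genes was 84.1 and 84.6 CPM per kilobase under DMSO and 86.5 and 83.3 under p53 activation.

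Rbfox3 went against most other neuron markers. Of the 9 listed, 7 were called higher and Rbfox3 was the only one called lower, beside Map2, a dendritic microtubule protein, which was not called (log2 fold change -0.11 ± 0.13 SE, limma adjusted p = 0.581). Of all genes tested 16.9% were called higher and 16.3% lower, and of nuclear protein-coding genes 21.2% and 7.19%. Tubb3, a neuronal tubulin, rose by 0.55 ± 0.08 on the log2 scale (adjusted p = 3.83e-08), and Slc17a7 and Gad1, which mark excitatory and inhibitory neurons, rose by 0.43 ± 0.08 and 0.31 ± 0.08 (adjusted p = 8.48e-06 and 0.00101). Gad1 was not called on the protein-coding total (0.16, adjusted p = 0.0851), after quantile normalization (0.16, 0.0642) or after cyclic loess (0.11, 0.245), and neither Gad1 nor Slc17a7 was called in limma without its trend (adjusted p = 0.0773 and 0.0546). When nuclear protein-coding genes took their own sum as the library total, 6 of the 9 were called higher and 2 lower, beside 4.34% and 13.0% of all protein-coding genes, and after cyclic loess 3 and 2, beside 5.01% and 9.79%. In both of these fits the 2 called lower were Rbfox3 and Map2 (Map2 -0.26, limma adjusted p = 0.0184, and -0.38, 0.000132). After quantile normalization Map2 was called higher (0.24, adjusted p = 0.0442). When limma was fitted without its mean-variance trend, 2 were called higher and 0 lower, beside 1.81% and 11.8% of all genes. The summed level of the 9 markers was 6544 and 7324 CPM under DMSO against 7575 and 7697 CPM under p53 activation. Of these sums Map2 held 3605 and 4121 CPM under DMSO and 3564 and 3602 CPM under p53 activation. The sum was not taken on the protein-coding total.

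**Figure D2:**
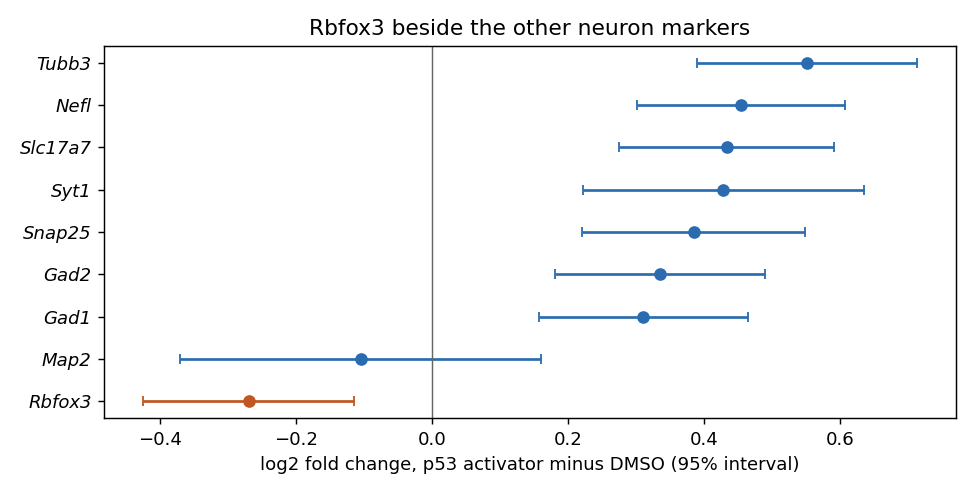
Log2 fold change between p53 activator and DMSO (horizontal axis) of the 9 neuron markers (vertical axis), with limma's 95% interval (n = 2 libraries each). Rbfox3 (orange) lies at -0.27 and Map2 at -0.11, with the other 7 markers between 0.31 and 0.55.

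The NOVA genes were not called. Nova2, the more abundant, read 140.4 and 155.9 CPM under DMSO against 156.1 and 156.2 CPM under p53 activation (log2 fold change 0.08 ± 0.08 SE). Nova1 read 34.4 and 30.9 CPM under DMSO against 32.6 and 31.9 CPM under p53 activation (-0.01 ± 0.10). The Nova1 groups overlapped, and for Nova2 the activator libraries lay narrowly above DMSO replicate 2 and well above DMSO replicate 1. Per kilobase of exon Nova2 made up between 81.0% and 84.0% of the NOVA level in the 4 libraries.

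Ptbp2, the neuronal form of polypyrimidine tract binding protein, read 143.4 and 139.6 CPM under DMSO against 151.7 and 148.1 CPM under p53 activation (log2 fold change 0.08 ± 0.08 SE). The activator libraries lay above the DMSO libraries by a few CPM, and the gene was not called. Celf4 was the most abundant of the 10 genes, at 352.3 and 365.4 CPM under DMSO against 361.2 and 395.2 CPM under p53 activation (0.07 ± 0.08), with overlapping groups. Over the 10 genes the groups did not overlap for 6 (4 with the activator above and 2 with it below), as was the case for 67.6% of all genes tested (36.6% with the activator above and 30.9% with it below).

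The values of the 8 genes that were not called lay in a narrow band, and their side of 0 depended on the scaling. Their log2 fold changes ran from -0.01 (Nova1) to 0.13 (Rbfox1), 7 of the 8 above 0, and their 95% intervals all lay between -0.21 and 0.28. When nuclear protein-coding genes took their own sum as the library total, which moved the median of those genes from 0.09 to -0.04, all 8 were negative, from -0.16 to -0.02. All 8 were also negative after cyclic loess of the protein-coding genes (-0.15 to -0.05) and after quantile normalization (-0.10 to -0.03). None of the 8 was called in any of these fits. Khdrbs2 lay between -1.28 and -0.99 and was called in all 15 alternatives run, and Rbfox3 lay between -0.43 and -0.24 and was called in 12 of the 15.

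**Figure D3:**
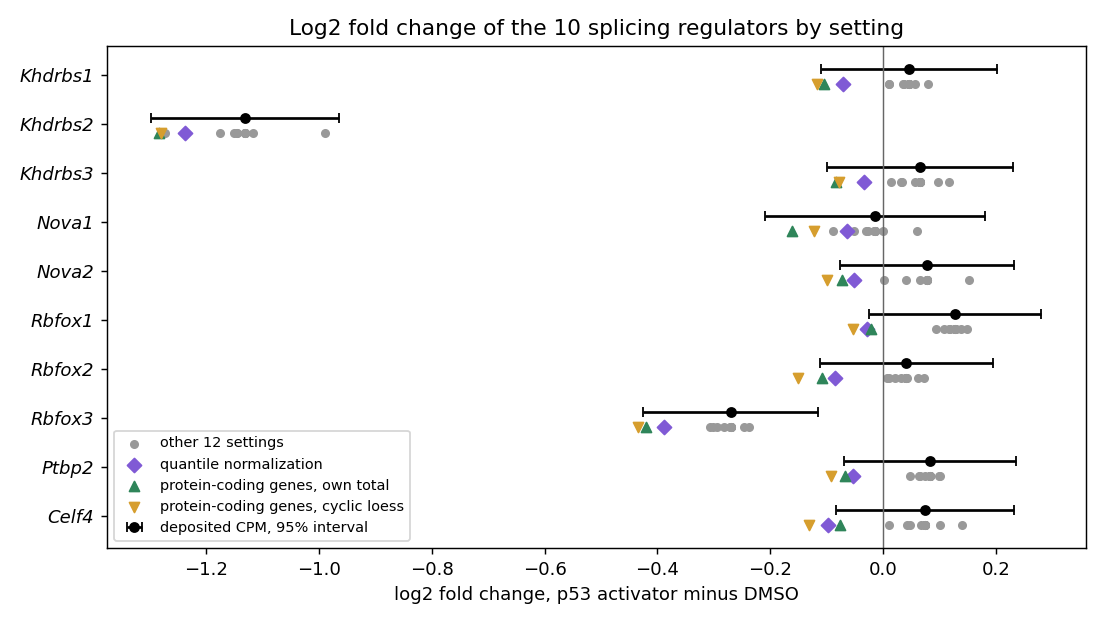
Log2 fold change (horizontal axis) of each splicing regulator (vertical axis) on deposited CPM with limma's 95% interval (black), in 3 alternatives that rescale or realign the libraries (coloured) and in the other 12 alternatives (grey). Khdrbs2 stays between -1.28 and -0.99 and Rbfox3 between -0.43 and -0.24, while the other 8 genes cross 0.

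Set in order of their DMSO level per kilobase of annotated exon, the 10 genes ran from Celf4 (41.8 ± 1.08 CPM per kilobase, SD, n = 2), Rbfox1 (36.4 ± 0.365), Rbfox2 (26.9 ± 0.518) and Rbfox3 (21.1 ± 0.494) through Khdrbs3 (18.5 ± 0.941), Nova2 (17.7 ± 1.32), Khdrbs1 (16.5 ± 0.556) and Ptbp2 (15.4 ± 0.289) to Khdrbs2 (11.3 ± 0.165) and Nova1 (3.74 ± 0.282). The ranges of Khdrbs3 and Nova2 overlapped, as did those of Nova2 and Khdrbs1, and no other neighbours in the order overlapped. Under p53 activation Khdrbs2 stood at 5.11 ± 0.725 CPM per kilobase, still above Nova1 at 3.69 ± 0.0547. The exon lengths are those of all GENCODE vM21 transcripts merged and may differ from what the authors counted, which would shift this order and the family shares per kilobase given above, but not the fold change of a gene.

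Several of these regulators are encoded by very long genes. Rbfox1 spans 1526 kb in GENCODE vM21, Khdrbs2 485.9 kb, Rbfox3 421.8 kb, Celf4 276.5 kb and Rbfox2 228 kb, against 39.1 kb for Khdrbs1 and 39.4 kb for Nova2. The longest, Rbfox1, was among those not called. Of the 222 nuclear protein-coding genes tested that span at least as much as Khdrbs2, 45 were called higher (20.3%) and 43 lower (19.4%). Of all nuclear protein-coding genes tested 21.2% were called higher and 7.19% lower. A part of gene length in the calls was not tested.

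The long spans contain other annotated genes, and these were all lower under p53 activation. After the members' values had been seen, the genes in the table whose span in GENCODE vM21 or RefSeq overlaps 1 of the 10 regulators were listed, leaving out nuclear protein-coding genes. There were 14, over 8 of the 10 regulators, 13 of them wholly inside the regulator's span, and Khdrbs1 and Ptbp2 had none. All 14 were called lower in limma, with log2 fold changes from -1.32 to -0.56 and a median of -0.95. Gm36824 (2.81 and 2.20 CPM under DMSO against 1.05 and 0.339 CPM under p53 activation) passed the filter only because of its DMSO libraries. Nothing is read from its call. After quantile normalization and in DESeq2 13 were called lower, and at a minimum of 5 CPM all of the 10 left. Of those 10, Gm52235 (8.43 and 7.35 CPM against 4.56 and 2.82 CPM) passed that minimum through its DMSO libraries alone. In all 14 both activator libraries lay below both DMSO libraries, as was the case for 30.9% of all genes tested. Each had a lower log2 fold change than the regulator it overlaps. Of all genes tested 16.3% were called lower, and of the 3892 tested that are not nuclear protein-coding genes in GENCODE 46.4% were. Among the other tested genes of that kind with a known place, 57.7% of the 1984 that overlap a tested protein-coding gene were called lower and 27.9% of the 1294 that overlap none.

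Inside Khdrbs2 lies Gm9839, on the opposite strand, which read 5.76 and 4.28 CPM under DMSO against 1.47 and 1.64 CPM under p53 activation (log2 fold change -1.23 ± 0.19 SE). On the CPM scale, which the added pseudocount does not dampen, Gm9839 stood at 0.309 of its DMSO mean and Khdrbs2 at 0.454. Rbfox1 overlaps 5 of the 14, of which the predicted gene Gm52234 was the most abundant, at 93.1 and 85.5 CPM under DMSO against 39.7 and 31.1 CPM under p53 activation (-1.32 ± 0.09). Gm52234 thus fell steeply inside a gene whose own value was 0.13. Gm11750, on the opposite strand inside Rbfox3, read 73.3 and 52.6 CPM under DMSO against 32.5 and 24.1 CPM under p53 activation (-1.12 ± 0.10). Gm3227, on the opposite strand inside Celf4, read 74.3 and 62.2 CPM under DMSO against 35.6 and 33.8 CPM under p53 activation (-0.95 ± 0.09).

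The smallest falls among the 14 were those of Gm33869 in Nova1 (log2 fold change -0.56), Gm38952 in Nova2 (-0.58) and Gm32896, which reaches beyond the end of Celf4 (-0.61). The span of 3 of the 14 touches an exon of the regulator, which holds for Gm33869, Gm38952 and 1700109K24Rik in Rbfox2. Among the 6 with a strand in GENCODE, 4 lie opposite to the regulator and 2 on the same strand. It is not known whether the authors' counting used strand, so reads from the unspliced regulator and reads from a gene inside it cannot be told apart. Without DMSO replicate 1, 12 of the 14 were called lower.

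**Figure D4:**
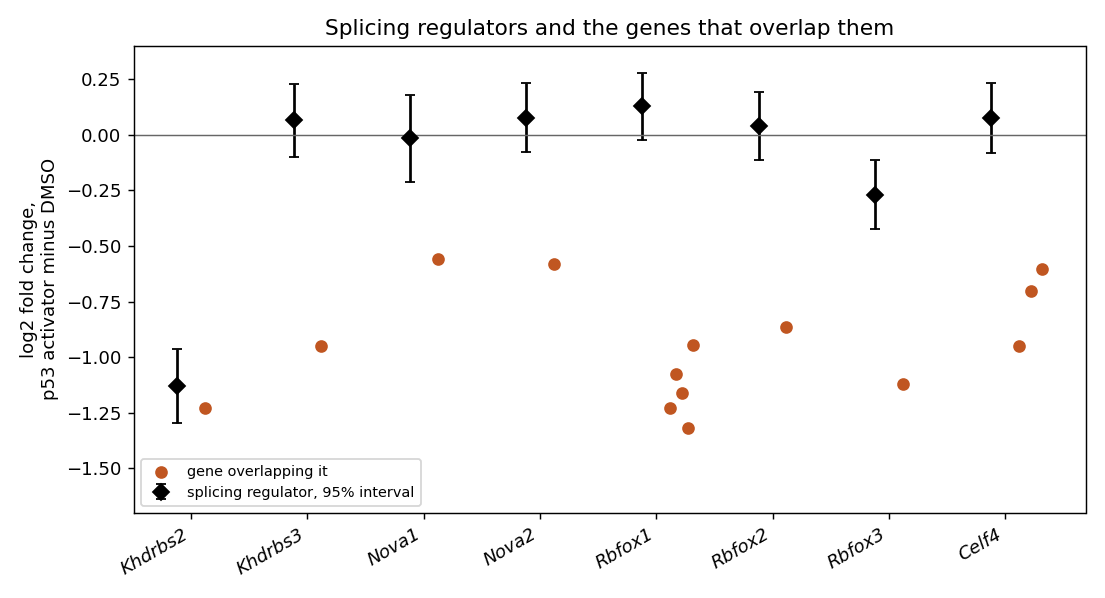
Log2 fold change between p53 activator and DMSO (vertical axis) of the 8 splicing regulators that other listed genes overlap (black diamonds, limma's 95% interval, n = 2 libraries each) and of the 14 overlapping genes (orange circles). The 14 lie between -1.32 and -0.56, each below its regulator, and Khdrbs2 is the regulator that lies among them.

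Of the other proteins that shape splicing and RNA handling in tissues, most were not called. Of 30 listed, 26 were in the table and tested, of which 4 were called higher and 2 lower, or 15.4% and 7.69%, beside 16.9% and 16.3% of all genes tested, with a median log2 fold change of 0.02 beside 0.03. Srrm3, a regulator of neuronal microexons, fell from 41.4 and 36.9 CPM under DMSO to 27.1 and 27.3 CPM under p53 activation (log2 fold change -0.51 ± 0.10 SE, limma adjusted p = 2.46e-05). Its relative Srrm4, which acts on the same kind of exon, stood at 68.5 ± 0.991 and 64.3 ± 0.569 CPM (SD, n = 2 each; -0.09, adjusted p = 0.432). Tia1, a binder of U-rich RNA, fell from 123.7 ± 10.9 to 102.6 ± 5.02 CPM (-0.27, adjusted p = 0.00610), and that call was lost without DMSO replicate 1, without p53 activator replicate 2 and in limma without its trend.

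The 4 called higher were Celf1, Elavl1, Elavl4 and Hnrnpll. Celf1, a relative of Celf4 with many mRNA targets, rose from 254.2 and 259.7 CPM to 307.5 and 311.2 CPM (0.27 ± 0.08 SE, limma adjusted p = 0.00478). Elavl1, which encodes HuR, rose from 113.4 ± 2.85 to 136.6 ± 2.43 CPM (SD, n = 2 each; 0.27, adjusted p = 0.00489), the neuronal Elavl4 rose by 0.25 (adjusted p = 0.0143) and Hnrnpll by 0.23 (adjusted p = 0.0279). When protein-coding genes took their own sum as the library total these 4 stood at 0.12, 0.12, 0.10 and 0.08 and were not called. There 0 of the 26 were called higher and 8 lower, beside 4.34% and 13.0% of all protein-coding genes. After cyclic loess the counts were 0 and 8, beside 5.01% and 9.79%. They were 0 and 4 after quantile normalization, beside 9.8% and 11.6% of all genes. In limma without its trend they were 0 and 1, beside 1.81% and 11.8%. Of all genes edgeR called 10.6% higher and 16.1% lower, and DESeq2 6.8% and 7.93%. In edgeR and in DESeq2 2 of the list were called higher and 2 lower, and without DMSO replicate 1 0 were called higher and 1 lower.

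Close relatives of the 10 genes stood as follows. Ptbp1, the form that neurons switch off as they mature, was low, at 18.8 ± 0.441 CPM under DMSO against 17.4 ± 1.86 CPM under p53 activation (log2 fold change -0.11, limma adjusted p = 0.495), and Ptbp3 stood at 28.0 ± 1.54 and 31.8 ± 1.19 CPM (0.18, adjusted p = 0.169; SD, n = 2 each). Celf2, the CELF gene with the most reads, read 904.9 and 897.8 CPM under DMSO against 783.8 and 790.7 CPM under p53 activation (-0.20, adjusted p = 0.0825). Its groups were well apart, yet it was not called. Celf3, Celf5 and Celf6 had log2 fold changes of -0.08, 0.13 and -0.05, with adjusted p = 0.491, 0.199 and 0.758 in limma.

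On deposited CPM, genes whose transcripts these proteins are known to splice or bind were called higher or not called as whole genes. Of 30 listed and tested, 10 were called higher and 0 lower in limma (13 and 1 at an unadjusted p under 0.05), 33.3% beside 16.9% of all genes and 21.2% of nuclear protein-coding genes, with a median log2 fold change of 0.16 beside 0.03 and 0.09. edgeR called 6 higher and 0 lower, beside 10.6% and 16.1% of all genes, and DESeq2 8 and 0, beside 6.8% and 7.93%. Under protein-coding scaling 2 were called higher and 5 lower, beside 4.34% and 13.0% of all protein-coding genes. After cyclic loess 1 and 7 were, beside 5.01% and 9.79%. After quantile normalization 3 and 4 were, beside 9.8% and 11.6% of all genes, so the direction of the list depended on the scaling. Without DMSO replicate 1 or p53 activator replicate 2, 4 were called higher, and without p53 activator replicate 1, 6. When limma was fitted without its mean-variance trend 0 were called higher, beside 1.81% of all genes.

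Nrxn2 and Nrxn3, which encode neurexins, are among the best known targets of the KHDRBS proteins. Nrxn2 rose from 490.5 and 545.5 CPM to 605.6 and 684.5 CPM (log2 fold change 0.32 ± 0.09 SE, limma adjusted p = 0.00243), a call lost without DMSO replicate 1 or p53 activator replicate 2 and in limma without its trend. The Nrxn2 value was 0.17 on the protein-coding total, 0.15 after quantile normalization and 0.10 after cyclic loess, and it was called in none of these (adjusted p = 0.0906, 0.0983 and 0.338). Nrxn3 read 312.8 and 312.4 CPM under DMSO against 293.1 and 304.4 CPM under p53 activation (-0.07 ± 0.08, adjusted p = 0.552). In limma Nrxn3 was called lower on the protein-coding total (-0.22, adjusted p = 0.0172), after quantile normalization (-0.22, 0.0189) and after cyclic loess (-0.27, 0.00293). Among other listed KHDRBS targets, Stxbp5l, Kif21a and Lysmd4 had log2 fold changes of -0.00, -0.08 and 0.19 and were not called on deposited CPM. In limma Kif21a was called lower on the protein-coding total (-0.23, adjusted p = 0.0155), after quantile normalization (-0.23, 0.0225) and after cyclic loess (-0.26, 0.00636). Of these fits Stxbp5l was called lower only after cyclic loess (-0.19, adjusted p = 0.0455), and Lysmd4 was called in none.

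By regulator, 1 of 6 KHDRBS targets, 0 of 8 NOVA targets, 5 of 8 RBFOX targets, 3 of 5 PTBP2 targets and 1 of 3 CELF4 targets were called higher. Of all genes tested 16.9% were called higher, and of nuclear protein-coding genes 21.2%. The RBFOX count was 1 of 8 in edgeR (10.6% of all genes called higher) and 3 of 8 in DESeq2 (6.8%). The counts of the other groups stayed the same there. The differences between these groups were not tested. The largest rises were those of Gabbr1, a GABA receptor subunit on the PTBP2 list (log2 fold change 0.40 ± 0.08 SE, limma adjusted p = 9.54e-05), and Snap25, a release protein on the RBFOX list (0.38 ± 0.08, adjusted p = 0.000134). Cltb (0.31), a clathrin light chain, and Dnm1 (0.29), the dynamin of vesicle retrieval, were also on the PTBP2 list, Syn1 (0.31), a synapsin, on the CELF4 list, and Dclk1 (0.30) and Camk2d (0.26), both kinases, on the RBFOX list. Of these 7, Gabbr1 and Snap25 were called higher when protein-coding genes took their own sum as the library total (adjusted p = 0.00729 and 0.0140; Snap25 was not called after cyclic loess, adjusted p = 0.0968), while Cltb, Dnm1, Syn1, Dclk1 and Camk2d stood at 0.11 to 0.17 and were not called.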

How the data were processed

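Total RNA of mouse cortical neurons was taken with TRIzol and depleted of ribosomal RNA, per the labels' protocols. The submitters' processing notes name TopHat2, Cufflinks 2.0.0 and mm9. No source used here names the counting program, its strand setting or the annotation. The authors deposited 1 column of CPM per library for 18854 genes; the unit was read from the values, since 100% of them are whole multiples of 1 read (tolerance 0.01 reads).

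The members and lists were chosen with earlier results of these data known. The filter asked for 1 CPM or more in 2 or more libraries and left 16654 genes. limma 3.58.1 (R 4.3.3) fitted log2(CPM + 1), two-sided, with a trend of spread with expression and Benjamini-Hochberg adjustment over all genes, leaning on 98.0 prior beside 2 residual degrees of freedom, and was tested on simulated data. Fold changes of low genes are understated. Named genes were the 10 regulators, their PTBP and CELF relatives, Nrxn2 and Nrxn3, up to 8 called genes of each list by size, the most abundant gene of each marker list and the 5 genes nearest to Khdrbs2 (mean of 5 CPM or more, without Gm or Rik names or small RNAs). A gene that the naming rule covers is not reported here. Genes overlapping the regulators, and further names, were chosen after values were seen. Alternatives were another pseudocount, filter, scaling, variance model or tool (edgeR 4.0.16, DESeq2 1.42.0), a replicate block and leaving out each library. Gene spans, exon lengths and classes came from GENCODE vM21, whose build differs from mm9; 15860 symbols matched.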

Additional observations from a re-analysis of the deposited data

How the results depend on the processing

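The limits are those of 2 libraries per group and of a shared total. Khdrbs2 was called lower in all 15 alternatives run, and Rbfox3 in 12, so that 1 regulator in place of 2 was lower in limma without its trend. All-gene counts of 2811 higher and 2721 lower became 554 and 1664 for protein-coding genes on their own total, 639 and 1250 after cyclic loess, and 1279 and 1493 in DESeq2. The higher count became 1632 after quantile normalization, 302 without the trend and 1869 in edgeR, and the lower count 1776 at a minimum of 5 CPM. The other splicing regulators, 4 higher and 2 lower, became 0 and 4 after quantile normalization, 0 and 8 on the protein-coding total and after cyclic loess, 0 and 1 without the trend, and 2 higher in edgeR and in DESeq2. The target genes, 10 higher and 0 lower, became 3 and 4 after quantile normalization, 2 and 5 on the protein-coding total, 1 and 7 after cyclic loess, 0 higher without the trend and 6 higher in edgeR. The causes were not tested.

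With 1 library left out, where the lone library is assumed to vary like the other group, all genes higher ranged from 1138 to 2122 and lower from 1445 to 2468, regulators lower from 1 to 2, other splicing regulators higher from 0 to 3 and lower from 1 to 2, target genes higher from 4 to 8, and genes overlapping the regulators lower from 12 to 14. Whether the same numbers on the titles mark pairs cannot be told here. Same-numbered libraries deviated together with a correlation of 0.12 across genes, but this rests on only 1 pair of deviations and cannot decide it. With the replicate block 7 other splicing regulators were higher and 1 target gene was lower, and all-gene counts were 3705 and 3132.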
